A study of Mus musculus with 15 samples.

Results

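The immunity-related GTPases (IRGs) are interferon-inducible enzymes of the mouse that gather on the membranes of vacuoles holding intracellular pathogens. The 7 genes described here, Irgm1, Irgm2, Igtp, Iigp1, Tgtp1, Tgtp2 and Ifi47, were chosen by gene symbol from the 17712 genes of the table, and all 7 were measured. Their RNA was read in 15 subcutaneous tumours of the mouse colon carcinoma line MC38, which C57BL/6 mice carried until the tumours measured about 5 mm. Each tumour was injected with 100 µL and taken 24 h later. The 3 vehicle tumours received PBS containing DMSO and glucose (5% of each). Whether the agents were injected in the same carrier is not given in the sources used here. BO-112, in which poly I:C (a synthetic double-stranded RNA) is packed with a polymer, was given at 50 µg to 4 tumours. DMXAA, an agonist of the mouse STING adaptor, was given at 100 µg to the next 4, and the last 4 received both agents at those amounts. The design asks what each agent does to tumour RNA and whether their joint effect departs from the sum of the separate effects.

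IRG proteins fall into regulators and effectors. The regulators (Irgm1, Irgm2 and Igtp, also called Irgm3) sit on the cell's own membranes and hold the effectors inactive there, while the effectors (Iigp1, also called Irga6, Tgtp1 and Tgtp2, known as Irgb6, and Ifi47, also called Irgd) load onto pathogen vacuoles and break them open with the help of the autophagy conjugation machinery. Interferon gamma is the classical inducer, acting on GAS elements, and type I interferon acts on ISRE elements.

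Promoter sequence was matched for 6 of the 7 genes, all on chromosome 11 (RefSeq, GRCm38.p6, from 250 bases before to 50 after the annotated start). These windows were searched on both strands for the ISRE core GAAA-NN-GAAA (N is any base) and the GAS pattern TTCNNNGAA. The ISRE core was found in 5 of the 6, against 3.44% of 32851 mouse promoters of the same length, and the GAS pattern in 4 of the 6, against 8.3%. Both were found in Igtp, Irgm2, Tgtp1 and Tgtp2, against 0.454% of promoters. Irgm1 had a pair of overlapping ISRE cores and no GAS pattern, and Ifi47 had neither in this window. A match is a description of the letters and was not tied to binding. The stretches of 64 bases that hold the matches are printed here, 5′ to 3′ on the gene's strand, because they hold the matches counted above. Capitals mark the matched letters, the GAS pattern first and the ISRE core after it, or for Irgm1 both ISRE cores.
Igtp: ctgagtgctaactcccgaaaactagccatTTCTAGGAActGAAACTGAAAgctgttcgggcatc
Irgm2: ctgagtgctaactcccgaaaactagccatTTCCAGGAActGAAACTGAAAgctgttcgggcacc
Irgm1: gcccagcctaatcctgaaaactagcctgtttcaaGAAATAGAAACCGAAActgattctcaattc
Tgtp1: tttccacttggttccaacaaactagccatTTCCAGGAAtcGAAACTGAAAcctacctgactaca
Tgtp2: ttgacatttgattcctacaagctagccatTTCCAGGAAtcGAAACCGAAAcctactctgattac
The coordinates are chr11:58199482-58199545 (+) for Igtp, chr11:58214873-58214936 (+) for Irgm2, chr11:48871421-48871484 (−) for Irgm1, chr11:48992300-48992363 (−) for Tgtp1 and chr11:49064259-49064322 (−) for Tgtp2. In the 4 genes with both patterns the GAS pattern lay directly upstream of the ISRE core, with only a pair of bases between them. Igtp and Irgm2 were the same at 62 of the 64 bases, and Tgtp1 and Tgtp2 at 49. Irgm1 stood apart and was the same as the other 4 at 29 to 35 bases.

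The libraries held 12725316 to 19660511 reads, and levels are read counts scaled to library size (CPM) at the authors' scaling. Changes are log2 fold changes with their standard error (SE), from limma fitted to all genes and all 15 libraries, with p-values adjusted by the Benjamini-Hochberg method and called below 0.05. Some libraries stood apart. Vehicle 3 had the lowest level of all 15 libraries for each of the 7 genes. Vehicle 2, BO-112 1, DMXAA 1 and DMXAA 3 were high in skeletal muscle genes, with a summed level of 181 to 960 CPM. In DMXAA 2 and DMXAA 3, short transcripts read high and long ones low, by a median log2 deviation of 0.95 and -0.58 in DMXAA 2 and of 0.45 and -0.37 in DMXAA 3. In bulk tumours a change in the number of cells that express a gene and a change in RNA per cell cannot be told apart.

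**Figure D1:**
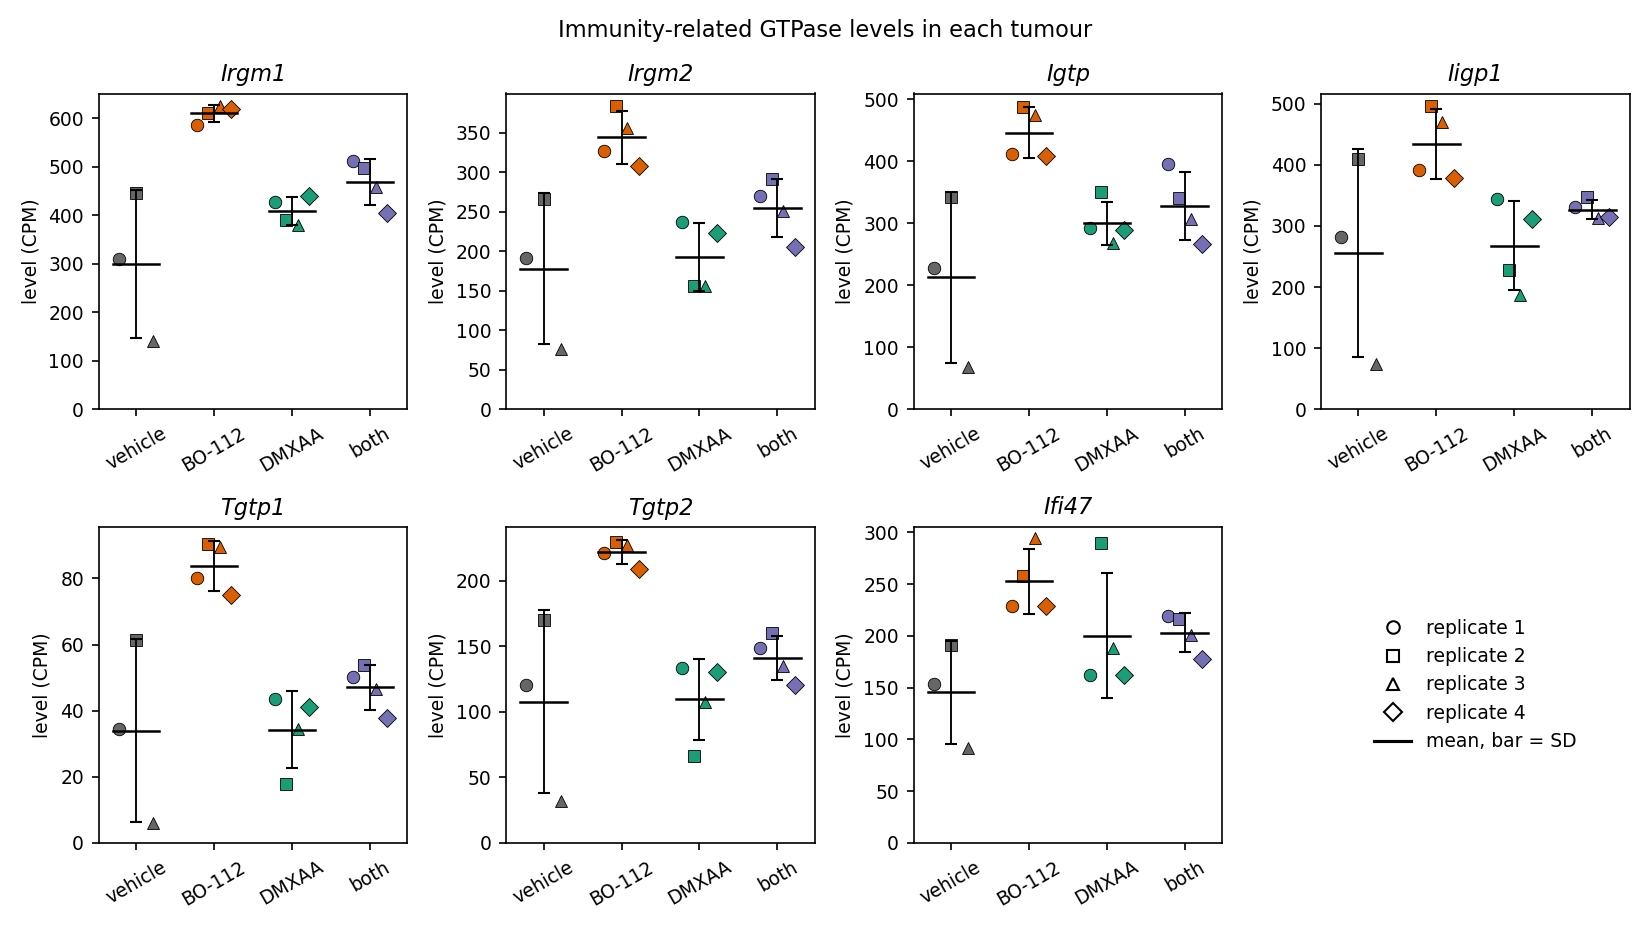
Levels of the 7 genes (CPM, linear axes from 0) in each of the 15 tumours by treatment, with 1 point per tumour, a line at the group mean and bars of 1 SD. The 4 BO-112 tumours sit close together and high, and the 3 vehicle tumours spread widely, with vehicle 3 lowest.

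BO-112 tumours held more RNA of the regulators than vehicle tumours. Irgm1 (ENSMUSG00000046879.8), which is also known for roles in autophagy and in the survival of blood stem cells and T cells, was read at 310, 447 and 141 CPM in the vehicle tumours and at 586, 610, 624 and 619 CPM with BO-112. All 4 BO-112 tumours lay above all 3 vehicle tumours. It rose by 1.18 ± 0.26 (log2, SE; adjusted p = 0.00716). Irgm2 (ENSMUSG00000069874.8), a regulator that also restrains the caspase-11 inflammasome, was at 191, 266 and 76.7 CPM in vehicle and at 327, 384, 356 and 308 CPM with BO-112. These groups did not overlap, and the rise was 1.12 ± 0.31 (adjusted p = 0.0264). Igtp (ENSMUSG00000078853.9), a regulator found on the endoplasmic reticulum and lipid droplets, was at 228, 343 and 68.4 CPM in vehicle and at 413, 488, 474 and 409 CPM with BO-112. Here too the groups were separate, with a rise of 1.35 ± 0.36 (adjusted p = 0.0251).

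Of the effectors, Tgtp1, Tgtp2 and Ifi47 rose with BO-112 and Iigp1 did not pass the test. Tgtp2 (ENSMUSG00000078921.4) was at 121, 170 and 32.3 CPM in vehicle and at 221, 230, 228 and 209 CPM with BO-112. It rose by 1.35 ± 0.40 (adjusted p = 0.04). Ifi47 (ENSMUSG00000078920.4) had the narrowest vehicle spread of the 7 genes as the ratio of the highest tumour to the lowest, at 153, 191 and 92.2 CPM, and read 229, 258, 295 and 229 CPM with BO-112. The groups did not overlap for Tgtp2 or Ifi47, and Ifi47 had the smallest change of the 7, at 0.85 ± 0.23 (adjusted p = 0.0244). Tgtp1 (ENSMUSG00000078922.10) had the lowest CPM, at 34.5, 61.4 and 6.05 CPM in vehicle and at 80.2, 90.5, 89.5 and 74.9 CPM with BO-112. Its groups were separate, and its rise of 1.83 ± 0.54 was the largest of the 7 (adjusted p = 0.038). Iigp1 (ENSMUSG00000054072.13), the effector best studied on the Toxoplasma vacuole, was at 283, 410 and 74.6 CPM in vehicle and at 392, 496, 470 and 379 CPM with BO-112. Vehicle 2 lay inside the BO-112 range, and the difference of 1.07 ± 0.40 had a 95% interval of 0.22 to 1.93 and an adjusted p of 0.0986.

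In all, 6 of the 7 genes were called higher with BO-112, against 7.64% of all genes, and 6 of 7 had ranges above and apart from vehicle, against 18.1%. The median change of the 7 was 1.18, beside -0.04 over all genes. Single libraries moved this count. Without vehicle 3 the changes were 0.34 to 0.86 with a median of 0.63, and 2 genes were called, Irgm1 at 0.71 (adjusted p = 0.00897) and Igtp at 0.67 (adjusted p = 0.0417), beside 5.24% of all genes called higher in that fit. Without BO-112 2 or without BO-112 3 only Irgm1 was called, and without BO-112 1 there were 3 calls. Without vehicle 2 all 7 were called, with Iigp1 at 1.57 (adjusted p = 0.0168). Irgm1 was called in all 15 fits that left out 1 library, Igtp in 13, Irgm2 and Ifi47 in 11 each, Tgtp1 in 8 and Tgtp2 in 5. For the other fits that left out 1 library, here and below, the share of all genes called is not given. The same holds for limma-voom, array quality weights and the replicate block. The counts of these fits can therefore not be set against all genes. A fit to these 2 groups alone called 1 gene, Ifi47, with an adjusted p of 0.0425, beside 13.9% of all genes called higher. Scaling by total count alone called 3, Irgm1, Igtp and Ifi47, beside 5.26% of all genes.

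**Figure D2:**
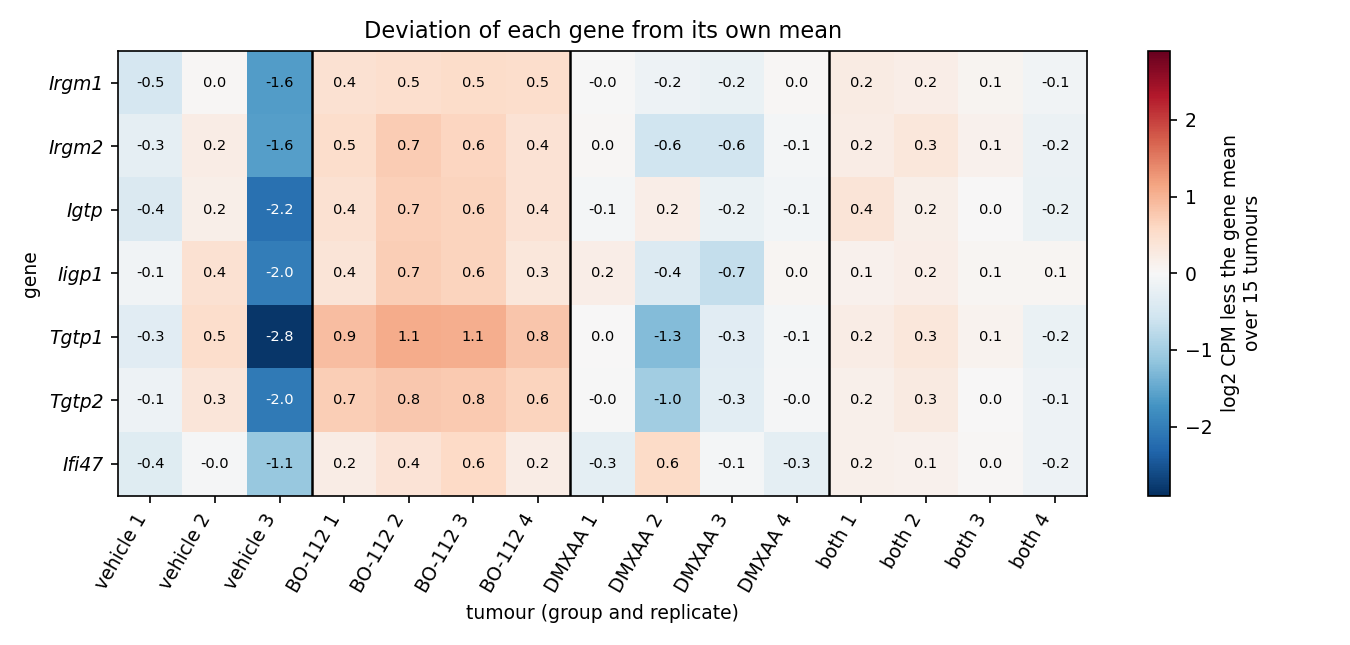
Deviation of each gene from its own mean over the 15 libraries (log2), with 1 row per gene and 1 column per tumour. Vehicle 3 is low for all 7 genes, the 4 BO-112 tumours are high for all 7, and DMXAA 2 is low for Tgtp1 and Tgtp2 and high for Ifi47.

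The vehicle tumours differed from each other more than the tumours of any treated group for all 7 genes, as the ratio of the highest tumour to the lowest. The highest vehicle tumour exceeded the lowest 10.1-fold for Tgtp1, 5.5-fold for Iigp1, 5.26-fold for Tgtp2, 5.01-fold for Igtp, 3.47-fold for Irgm2, 3.16-fold for Irgm1 and 2.07-fold for Ifi47. In the BO-112 group the spread was small, with a mean of 610 ± 16.8 CPM (SD, n = 4) for Irgm1 against 299 ± 153 CPM (SD, n = 3) in vehicle. The mean deviation over the 7 genes from their own means was -1.91 (log2) in vehicle 3, -0.30 in vehicle 1 and 0.24 in vehicle 2, and 0.48 to 0.70 in the 4 BO-112 tumours. Vehicle 3 was also the lowest of the 3 vehicle tumours for interferon gamma RNA (Ifng), at 0.0593 CPM beside 1.28 and 2.54 CPM, and its 12 T cell markers summed to 63.0 CPM beside 116 and 142 CPM. Its 8 NK cell markers summed to 39.7 CPM beside 57.0 and 64.6 CPM. It was the highest of the 3 for epithelial markers, at a summed 85.4 CPM beside 27.8 and 28.8 CPM, and for monocyte markers, at 760 CPM beside 622 and 485 CPM. Its macrophage and dendritic cell markers were also the highest of the 3, at 3292 and 50.4 CPM. The part of these cells and signals in the low IRG levels of vehicle 3 was not tested.

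DMXAA alone gave no call. Irgm1 was at 427, 390, 380 and 441 CPM in the DMXAA tumours, all inside the wide vehicle range. Igtp was at 293, 350, 268 and 289 CPM, and only DMXAA 2 lay above the vehicle tumours. Irgm2 ranged from 156 to 238 CPM and Iigp1 from 187 to 344 CPM, inside the vehicle ranges. Tgtp2 was at 134, 66.7, 107 and 130 CPM, and Tgtp1 ranged from 17.96 to 43.5 CPM with the same tumour lowest. Ifi47 was at 162, 289, 188 and 162 CPM. DMXAA 2 was the lowest of its group for Tgtp1 and Tgtp2 and the highest for Igtp and Ifi47, and for those last genes it lay above every vehicle tumour. Against vehicle 0 of 7 genes were called by limma, beside 1.25% of all genes called in either direction. At an unadjusted p below 0.05 there was 1 gene of the 7, beside 18.1% of all genes. It was Irgm1 at 0.60 ± 0.26 (adjusted p = 0.255), and limma-voom called 0. The 7 differences lay between 0.27 and 0.77 with a median of 0.47, beside 0.01 over all genes, and the ranges of 0 of 7 were apart, beside 6.52% of all genes with ranges above vehicle. Without vehicle 3 the median was -0.25, with only 3 of the 7 differences above 0, and without vehicle 2 there was 1 call, Irgm1.

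With both agents, Irgm1 was at 513, 498, 459 and 405 CPM, and the last of these lay inside the vehicle range. Igtp was at 396, 340, 307 and 267 CPM, where only the first lay above vehicle. Tgtp2 was at 149, 160, 135 and 121 CPM, all inside the vehicle range. Irgm2 ranged from 205 to 292 CPM, Iigp1 from 313 to 347 CPM, Tgtp1 from 37.8 to 53.8 CPM and Ifi47 from 177 to 219 CPM. For each of the 7 genes at least 1 of these tumours lay inside the vehicle range, and all 4 lay below the lowest BO-112 tumour. Against vehicle 0 of 7 were called by limma, beside 2.67% of all genes called in either direction, and limma-voom called 0. At an unadjusted p below 0.05 there were 4 genes, Irgm1, Igtp, Irgm2 and Ifi47, beside 11.5% of all genes. Irgm1 had the smallest adjusted p, with 0.79 ± 0.26 (adjusted p = 0.158). The median of the 7 differences was 0.69, beside -0.01 over all genes. Without vehicle 3 that median was 0.16, and without vehicle 2 there were 2 calls, Irgm1 and Igtp. The 3 comparisons with vehicle share the same 3 vehicle tumours.

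Between both agents and BO-112 alone, all 7 genes were lower with both agents and all 7 had separate ranges, beside 6.11% of all genes with ranges apart in that direction. None passed the test. In that comparison limma called 0 of the 7 and 0% of all genes, and limma-voom called 0. At an unadjusted p below 0.05 there were 0 of the 7, beside 9.54% of all genes. The differences lay between -0.84 (Tgtp1) and -0.31 (Ifi47), with a median of -0.44 beside 0.01 over all genes. For Irgm1 the value was -0.39 ± 0.24 with a 95% interval of -0.90 to 0.12 and an adjusted p of 0.672. That fit shares its spread with the vehicle tumours. A fit to the 2 compared groups alone, with no vehicle tumour in it, called 4 lower, Irgm1, Iigp1, Tgtp1 and Tgtp2, beside 1.76% of all genes called lower.

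**Figure D3:**
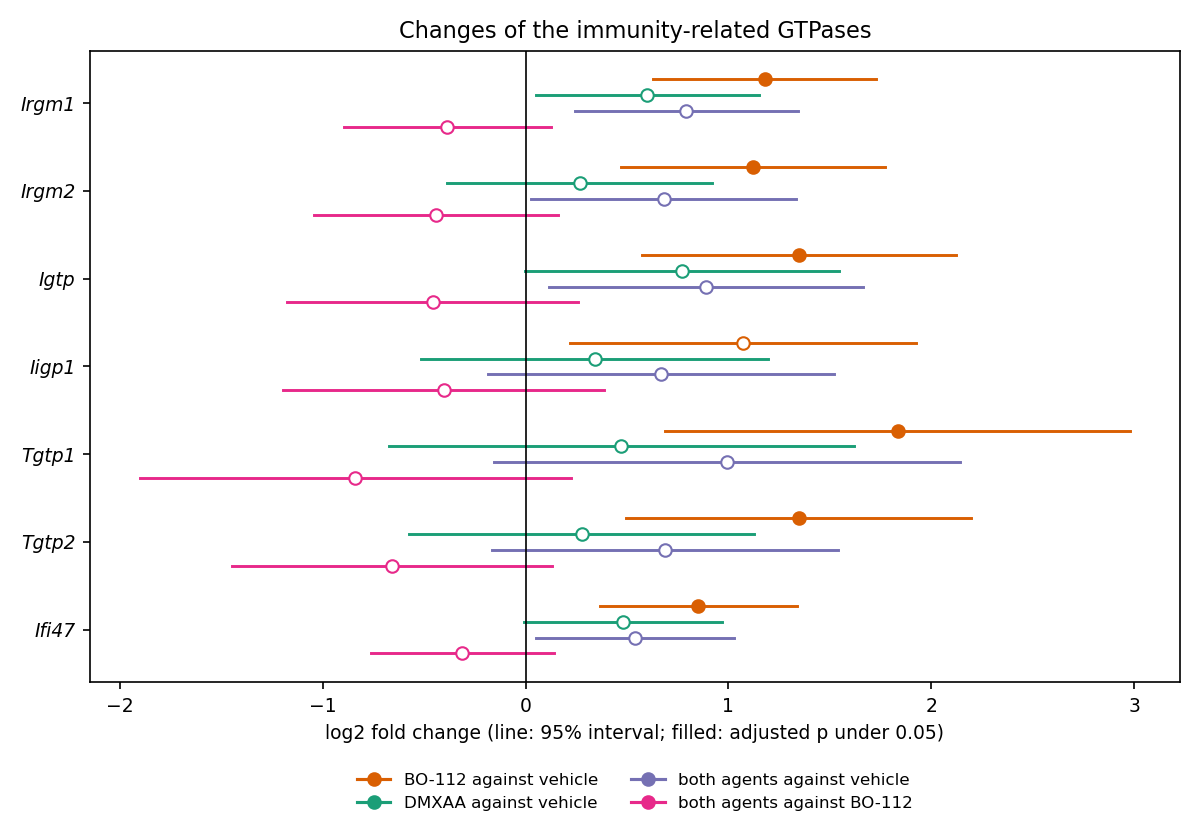
Fold changes (log2) of the 7 genes in 4 comparisons, with 95% intervals from limma, where filled points passed an adjusted p of 0.05. The 6 filled points are all in BO-112 against vehicle, and both agents against BO-112 lies below 0 for all 7 genes with intervals that cross 0.

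BO-112 was set beside DMXAA directly as well. The 7 differences were all higher with BO-112, from 0.37 (Ifi47) to 1.36 (Tgtp1), with a median of 0.73 beside -0.05 over all genes. Only Irgm2 was called, at 0.86 ± 0.28 (adjusted p = 0.0436), beside 11.2% of all genes called higher. Ranges were apart in 6 of 7, all but Ifi47, beside 12.1% of all genes. The call was lost without any 1 of BO-112 1 to 4, of the 4 tumours with both agents, of vehicle 1 or of DMXAA 3, which left 0 calls, and without DMXAA 2 the only call was Ifi47 (0.56, adjusted p = 0.047). Without vehicle 3 there were 6 calls, without vehicle 2 there were 4, without DMXAA 1 there were 3 and without DMXAA 4 there were 2. The share of all genes called in these fits is not given, so a move of the whole table cannot be told from one of the 7. A fit to these 2 groups alone called 5, beside 4.58% of all genes called higher. With array quality weights Irgm2 was not called (0.67, adjusted p = 0.147) and Ifi47 was (0.58, adjusted p = 0.0449). Without DMXAA 2 and DMXAA 3, whose transcript lengths were skewed, the Irgm2 difference was 0.58 (adjusted p = 0.375).

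For both agents against DMXAA, the 7 differences lay between 0.06 (Ifi47) and 0.52 (Tgtp1) with a median of 0.33, beside 0.00 over all genes. By limma 0 were called, beside 0.886% of all genes in either direction, and limma-voom called 0. At an unadjusted p below 0.05 there were 0 of the 7, beside 23.9% of all genes. The interaction compares the change that DMXAA made on top of BO-112 with the change it made on top of vehicle. It was negative for all 7 genes, between -1.31 (Tgtp1) and -0.71 (Irgm2), with a median of -0.94 beside 0.02 over all genes. By limma 0 were called, beside 1.35% of all genes in either direction. At an unadjusted p below 0.05 there were 3 genes, Irgm1, Igtp and Ifi47, beside 14.7% of all genes, and limma-voom called 0. Irgm1 had -0.99 ± 0.35 (adjusted p = 0.208). Without vehicle 3 the median was -0.34, and without vehicle 2 Irgm1 was called.

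**Figure D4:**
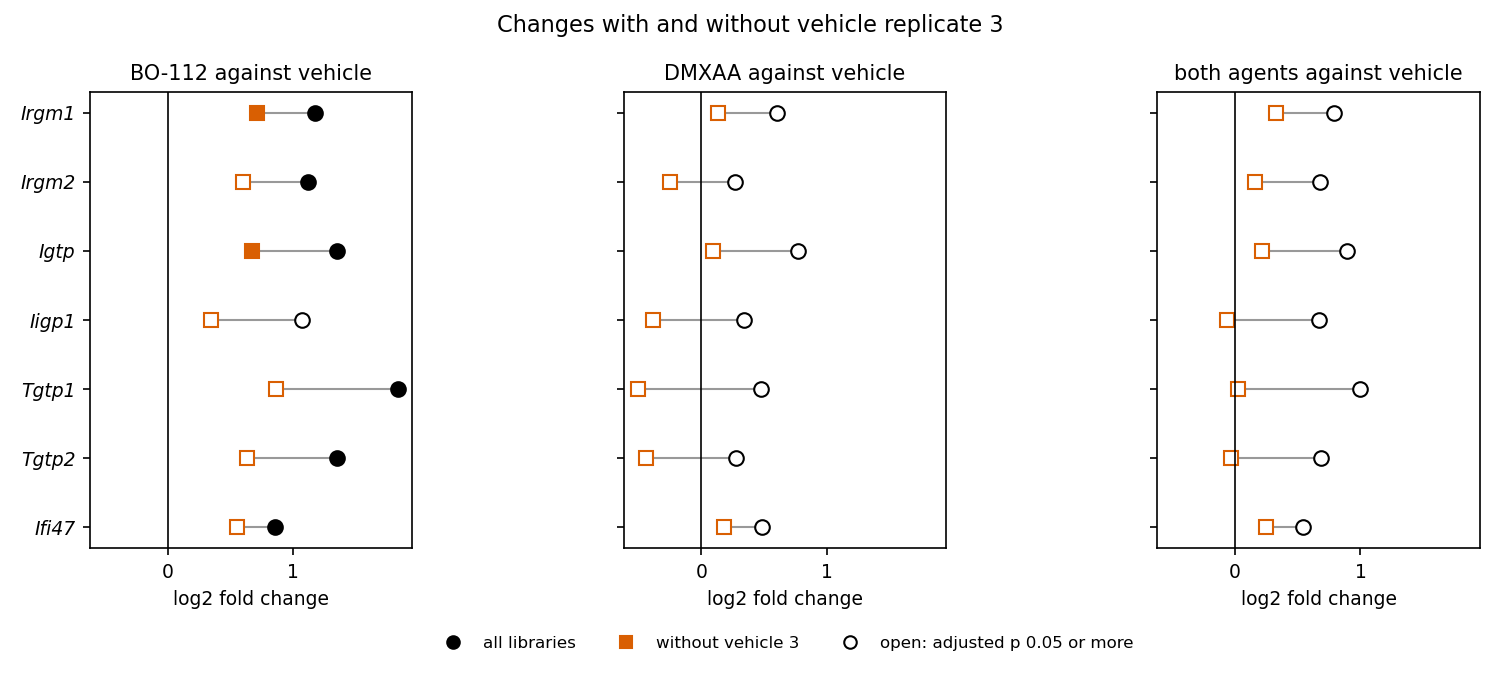
Fold changes (log2) of the 7 genes against vehicle with all libraries (circles) and without vehicle 3 (squares), where filled marks passed an adjusted p of 0.05. Every gene moves toward lower values without vehicle 3, and in DMXAA against vehicle 4 genes move below 0.

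Levels can be ranked between genes only per kilobase of exon (CPM per kb, with lengths from GENCODE M21). In BO-112 tumours Igtp was highest at 221 ± 20.3 CPM per kb (SD, n = 4), followed by Irgm1 at 105 ± 2.9, Ifi47 at 102 ± 12.6 and Irgm2 at 93.2 ± 9.04. Neighbours among the last 3 did not differ beyond their spread. Tgtp2 at 75.6 ± 3.15 and Iigp1 at 74.6 ± 9.88 CPM per kb were next and within each other's spread, and Tgtp1 was lowest at 26.1. Igtp was the highest and Tgtp1 the lowest of the 7 in every group. The summed level of the 3 regulators over that of the 4 effectors, per kilobase, was 1.25 to 1.42 in vehicle tumours. In the BO-112 group it was 1.44 to 1.56, in the DMXAA group 1.53 to 1.59 and in tumours given both 1.44 to 1.69, so that each treated tumour lay above each vehicle tumour. The closest of these were BO-112 3 at 1.436 and vehicle 2 at 1.418. The effectors include Tgtp1 and Tgtp2, whose shared reads could have been dropped. The length skew of DMXAA 2 and DMXAA 3 also enters the ratio, which was not tested.

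Tgtp1 and Tgtp2 are near copies, and their separate values are uncertain. Of the 150-base stretches of their GENCODE transcripts, 62.5% of those in Tgtp1 and 68.4% of those in Tgtp2 also occur in the other gene, so that the authors' counting could have split or dropped such reads. Irgm1, Iigp1 and Ifi47 shared 0 stretches with any other gene, and Igtp and Irgm2 shared 16. Exons also overlap on the same strand, by 162 bases between Igtp and Irgm2, by 223 between Tgtp1 and the predicted GTPase gene Gm12185, and by 111 between Ifi47 and Olfr56. On the opposite strand Gm12188 overlaps Ifi47 by 106 bases. How the counting treated such overlaps and strand is not given in the sources used here. The reads of Tgtp1 and Tgtp2 together came to 38.4 to 231 CPM in vehicle tumours and 284 to 321 CPM in BO-112 tumours. In the DMXAA group they came to 84.7 to 177 CPM, and in the group given both to 159 to 214 CPM. The sum was separate between vehicle and BO-112, as each gene alone was. Tgtp1 made up 22.2%, 26.5% and 15.8% of the sum in vehicle 1 to 3 and 26.3% to 28.2% with BO-112.

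Across the 15 libraries the Pearson correlations of log2 CPM between the 7 genes ran from 0.664 (Tgtp2 with Ifi47) to 0.998 (Tgtp1 with Tgtp2). After group means were removed these were 0.412 and 0.997. The values share libraries and scaling and are given as a description. Against Irgm2, Ifi47 was higher by 0.89, 0.27 and 0.27 (log2 CPM) in DMXAA 2, DMXAA 3 and vehicle 3. In every other library it was lower, with differences of -0.58 to -0.21. The patterns of 13715 genes outside the 7 over the 15 libraries were compared with the mean of the 7. Genes with clone-like symbols (Gm or Rik) were then skipped, unless they stood in a list described below. The most alike of those left were Gm12250 (Pearson 0.986), Batf2 (0.980), Gbp2 (0.969), Tap1 (0.965), Gm12185 (0.964) and Apol10b (0.954). Gm12185 is the gene whose exons overlap those of Tgtp1. Gm12250 encodes another IRG protein, Irgb10, Batf2 is a transcription factor, Gbp2 a guanylate-binding protein and Tap1 a subunit of the peptide transporter that feeds MHC class I. Gm12250 was at 41.7 ± 26.8 CPM in vehicle and 103 ± 13.4 CPM with BO-112 (SD). As it was picked for its likeness to the 7 genes over these same libraries, that difference follows from the choice and is given as a description.

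Other interferon-inducible GTPases were described from lists. Of 11 guanylate-binding proteins, which are recruited to the same vacuoles, 7 rose and 0 fell with BO-112, beside 7.64% and 4.31% of all genes, with a median change of 1.28. Gbp3 rose from 187 ± 97.5 to 632 ± 45.4 CPM (log2 1.92 ± 0.27, adjusted p = 0.000247), Gbp5 rose by 2.01 ± 0.32 (adjusted p = 0.000718) and Gbp6 by 1.67 ± 0.29 (adjusted p = 0.00146). Gbp2b, named after its value was seen, differed the other way and was not called, at -2.16 ± 0.85 (adjusted p = 0.119). Its level was 5.73 ± 5.40 CPM in vehicle and 0.815 ± 0.494 CPM with BO-112. A second list held 15 further GTPases, of which 13 were measured. There 8 rose and 0 fell, with a median of 1.58. The dynamin-like antiviral proteins led it, with Mx2 at 3.04 ± 0.27 (adjusted p = 4.47e-06) and Mx1 at 3.00 ± 0.37 (adjusted p = 9e-05), followed by Gm5431 at 1.86 ± 0.33 (adjusted p = 0.00159). With DMXAA 0 genes of either list were called, beside 1.25% of all genes in either direction. With both agents 1 and 2 were called higher against vehicle, beside 2.67% of all genes in either direction.

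Of 17 genes of interferon signalling, 7 rose and 0 fell with BO-112, beside 7.64% and 4.31% of all genes, with a median of 0.41. Ifnb1, which encodes interferon beta, went from 0.107 ± 0.0421 to 7.20 ± 2.58 CPM, with a change of 5.70 ± 0.42 (adjusted p = 1.38e-06). It was at 0.330 ± 0.192 CPM with DMXAA and 1.68 ± 0.453 CPM with both agents (SD, n = 4 each). Irf9 rose by 0.94 ± 0.14 (adjusted p = 0.000531) and Stat2 by 1.81 ± 0.28 (adjusted p = 0.000536). Ifng was low throughout, at 1.10, 0.421, 1.26 and 0.447 CPM with BO-112, a difference of 0.16 ± 0.90 (adjusted p = 0.942). Vehicle 1 and vehicle 2 lay above all 4 of these tumours and vehicle 3 below them, and without vehicle 3 the difference was -1.30 ± 0.66 (adjusted p = 0.286). Its highest value was 6.49 CPM in DMXAA 2. Irf1, the interferon gamma-induced transcription factor, differed by 0.41 ± 0.20 (adjusted p = 0.205). DMXAA called 0 of the 17, beside 1.25% of all genes in either direction. Both agents called 3 higher against vehicle, beside 2.67% of all genes in either direction.

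The last list held genes of the autophagy conjugation machinery, together with initiation genes, ubiquitin ligases and an adaptor. Of 17 genes, 4 rose and 0 fell with BO-112, beside 7.64% and 4.31% of all genes, with a median of 0.19. Trim21, a ubiquitin ligase, rose by 0.98 ± 0.15 (adjusted p = 0.000501), Traf6, another, by 0.76 ± 0.14 (adjusted p = 0.002), and the adaptor Sqstm1 by 0.74 ± 0.20 (adjusted p = 0.0274). The remaining call was Atg12, the ubiquitin-like protein that is joined to Atg5, at 0.39 ± 0.11 (adjusted p = 0.0313), named after its value was seen. Of the other conjugation genes Atg3, Atg5, Atg7 and Atg16l1 were not called, at -0.06 to 0.20. With DMXAA and with both agents 0 of the 17 were called against vehicle, beside 1.25% and 2.67% of all genes in either direction.

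Summed markers of some cell types differed between the groups. Of all genes, 7.64% were called higher and 4.31% lower with BO-112 against vehicle. In either direction, 1.25% were called with DMXAA and 2.67% with both agents. Beside those shares, 1 call in a list this short says little. Neutrophil markers (9 genes) summed to 31.02 to 47.3 CPM in vehicle tumours. They summed to 403 to 483 CPM in BO-112 tumours, where 5 of the 9 rose and the median change was 2.29. The sums were 50.3 to 211 CPM in the DMXAA group, where 3 rose against vehicle with a median of 2.34. In tumours given both they were 155 to 367 CPM, where 6 rose with a median of 3.55. These medians ranked the groups in another order than the sums. NK cell markers (8 genes) summed to 39.7 to 64.6 CPM in vehicle and 76.4 to 103 CPM with BO-112, with 1 of the 8 called higher and a median change of 0.04. T cell markers (12 genes) summed to 63.0 to 142 CPM in vehicle and 79.7 to 121 CPM with BO-112, with 0 called. The 9 macrophage markers summed to 2601 to 3292 CPM in vehicle and 2601 to 3102 CPM with BO-112, with 3 called lower. Of 8 epithelial markers 4 were measured, at a summed 27.8 to 85.4 CPM in vehicle and 7.40 to 12.04 CPM with BO-112, with 2 called lower and 1 higher. The 8 dendritic cell markers summed to 33.9 to 50.4 CPM in vehicle and 59.1 to 91.4 CPM with BO-112, with 1 called higher, 1 lower and a median change of -0.07. The 8 endothelial markers summed to 201 to 230.4 and 275 to 318 CPM, with 1 called higher and a median of 0.24. Of 6 B cell markers 5 were measured, at a summed 2.28 to 3.87 CPM in vehicle and 5.81 to 8.05 CPM with BO-112, with 1 called higher and a median of -0.01. The 6 monocyte markers summed to 485 to 760 CPM in vehicle and 738 to 802 CPM with BO-112. Of them, 2 were called higher and 1 lower with BO-112, and 2 higher with DMXAA and with both agents. The 7 fibroblast markers summed to 4292 to 6772 CPM in vehicle and 5467 to 8502 CPM with BO-112, with 1 called higher. Of the 12 skeletal muscle markers 0 were called against vehicle. The part of these cells in the IRG changes was not tested.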

How the data were processed

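Per the labels, RNA of each tumour was prepared with a stranded mRNA kit and sequenced as paired reads of 150 bp. STAR, edgeR, limma and the mm39 build are named in the submitters' processing notes. The table used holds log2 CPM, deposited by the authors with a 0.5-read offset and scaled library sizes (factors 0.85 to 1.08). Whole reads were recovered for 100% of values (tolerance 1e-06). The 15 columns of a second, raw table carry no sample names and were not used.

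Symbols came from GENCODE M21 by Ensembl identifier for 17636 genes, with 76 unmatched. It lies on another build, as do the RefSeq promoters. With R 4.3.3 and limma 3.58.1, 4 group means were fitted to all 15 libraries (trend and robust variance) and p-values were adjusted over all 17712 genes. The fit was tested on simulated data in which a gene had the same spread in every group. The 7 genes spread more widely in vehicle than with BO-112, and that test does not cover this. Genes and lists were chosen with earlier results of these data known. All 7 genes are named. Of each list the 3 with the smallest adjusted p for BO-112 are named, with Ifng, Ifnb1 and Irf1 always. The 6 genes most like the mean are also named, after Gm and Rik symbols outside the lists were skipped. A further gene of this rule is not reported here. The labels call the tumours biological replicates. They give no batch.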

Additional observations from a re-analysis of the deposited data

How the results depend on the processing

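Counts of genes called, of the 7, moved as follows, given without the share of all genes called in each fit. For BO-112 against vehicle (6) it was 3 by total count and 1 in the fit to the 2 compared groups alone, with a leave-one-out range of 1 to 7. Without the 4 muscle-rich libraries Iigp1 was called as well (1.62, adjusted p = 0.0436). Without DMXAA 2 and 3 the call of Tgtp1 was lost (1.83, adjusted p = 0.0526). For DMXAA and for both agents against vehicle (0 each) the ranges were 0 to 1 and 0 to 2, with 1 for both agents without the 4 muscle-rich libraries. For both agents against BO-112 (0) it was 4 in the 2 groups alone, and leaving out a library gave 0 there and for both agents against DMXAA. For BO-112 against DMXAA (1) it was 0 by total count, without the 4 muscle-rich libraries and without DMXAA 2 and 3, and 2 with geometric-mean scaling, a 2-read offset, a filter of 1 CPM in 4 libraries or the length trend removed. With array quality weights it stayed 1 but the gene was Ifi47, not Irgm2. It was 5 in the 2 groups alone, with a leave-one-out range of 0 to 6. The interaction (0) gave 0 to 1. Leaving out the muscle-rich libraries, leaving out DMXAA 2 and 3 and removing the length trend were chosen after seeing the data. The cause was not tested for these moves.

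Direction reversed for DMXAA against vehicle in Iigp1 (-0.39 to 0.84 over left-out libraries), Irgm2 (-0.25 to 0.64), Tgtp1 (-0.50 to 1.17) and Tgtp2 (-0.44 to 0.76), and for both agents against vehicle in Iigp1 (-0.062 to 1.17) and Tgtp2 (-0.029 to 1.17), each without vehicle 3. For both agents against DMXAA, Ifi47 ranged from -0.028 to 0.25 over left-out libraries and was -0.095 without the muscle-rich libraries, and Iigp1 was -0.0047 without DMXAA 2 and 3. Scaling by total count shifted the median of all genes by -0.16 for BO-112 against vehicle, -0.13 for DMXAA against vehicle and 0.22 for the interaction, and turned no direction among the 7. With it 34% of all calls for BO-112 against vehicle were higher, beside 63.9%.

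The labels do not say that the replicate numbers pair the tumours. Deviations from group means had a mean correlation of 0.0477 in 21 same-numbered pairs (-0.229 to 0.371). In 63 pairs of unlike number it was -0.0152 (-0.423 to 0.401). These values cannot show whether the tumours were paired. A replicate block gave 4 calls for BO-112 against vehicle, 1 for BO-112 against DMXAA and 0 in the other comparisons. The share of all genes called with that block is not given, so these counts cannot be set against all genes. With 3 vehicle tumours, 1 of them low, the data cannot place the vehicle level closely.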
